A study of Gallus gallus with 12 samples.

Results

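The transcripts described here were dim in the chick lung on embryonic day (E) 14 and read higher on all 3 arrays at E18. They were chosen from the deposited log2 values by a rule. All 3 arrays at E14 had to read under 7, all 3 arrays at E18 over 8, and the mean at E18 had to be at least 2 log2 units above the mean at E14. Of 21390 transcripts, 37 met the rule. The samples were whole lungs of untreated white leghorn chick embryos at E14, E15, E16 and E18, with 3 biological replicates at each stage, and no group carried a treatment or an allele. Each RNA sample was hybridized to a NimbleGen expression array of chicken open reading frames. Whether a sample was the lung of a single embryo or a pool is not given in the sources used here. The values are on a log2 scale after Robust Multi-array Analysis (RMA), so a difference of 1 is a 2-fold change in signal.

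Between these stages the bird lung builds its gas exchange tissue. Air capillaries bud from the parabronchi, blood capillaries grow in around them, the interstitium thins, and the epithelium begins to make surfactant before the chick pips and breathes. Some genes of such a late programme are close to silent earlier, and a search for transcripts that leave the dim end of the array is a way to list them. The transcripts carry Ensembl identifiers only. None of the identifiers occurs in the RefSeq gene table used here, so the 37 have no gene names, roles or sequences in this account, and markers of lung epithelium, endothelium or other cell types could not be matched to them. In RNA of a whole organ, more cells of a type and more RNA per cell cannot be told apart.

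The range of values was not the same on every array, which bears on any transcript chosen for being dim. Over all transcripts the standard deviation (SD) was between 2.58 and 2.62 on 8 arrays. It was lower on 4 arrays, namely replicate 1 of E16 (2.51), replicate 3 of E15 (2.44) and replicates 2 and 3 of E18 (2.38 and 2.22). On these 4 arrays fewer transcripts read under 7, from 7.58% of all on E18 replicate 3 to 13.0% on E16 replicate 1, against 14.7% to 15.7% on the other 8. E18 was thus represented by 1 array of the wider kind and 2 of the narrower kind, while all 3 arrays at E14 were of the wider kind. Stage and array spread can therefore be told apart only in part.

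At E14 and E18 the levels were fixed by the rule and are given as a description. The median of the 37 was 6.46, 6.48 and 6.59 on the 3 arrays at E14. At E18 it was 8.26 on replicate 1, 10.82 on replicate 2 and 11.92 on replicate 3. The 3 arrays at E18 were far apart, and replicate 3 was higher than replicate 1 by a median of 3.64 log2 units.

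**Figure D1:**
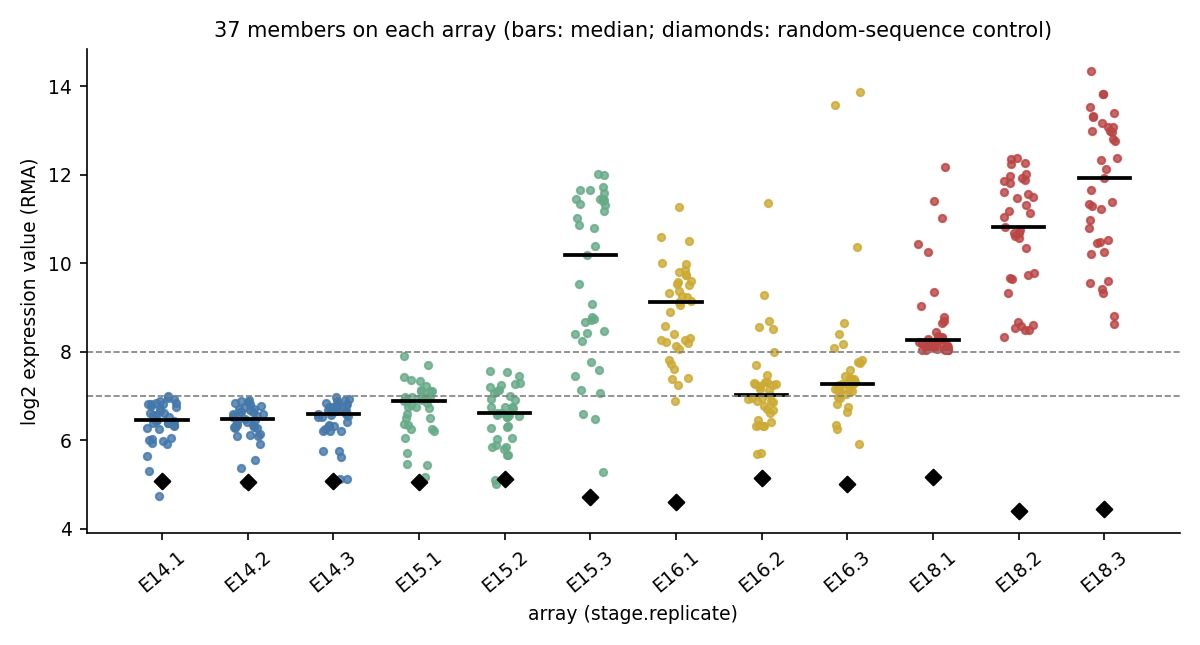
Log2 expression value (vertical axis) of each of the 37 transcripts on each of the 12 arrays (horizontal axis, stage and replicate), with the median as a bar, the random-sequence control as a diamond and the limits of 7 and 8 as dashed lines. The medians stay at or under 6.89 on the arrays of E14 and on E15 replicates 1 and 2, and reach 10.18 on E15 replicate 3 and 11.92 on E18 replicate 3.

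The increase from E14 to E18 was between 2.04 and 5.24 log2 units, with a median of 4.08, where the median of all 21390 transcripts was -0.17. In a limma fit of 1 mean per stage to all 12 arrays, 22 of the 37 had an adjusted p of at most 0.05 for this contrast, beside 6.83% of all transcripts called higher at E18, and 0 of the 37 were lower, beside 12.6% of all. The rule used this contrast, so nothing can be read from that count. Measured on E18 replicate 1 alone, the increase over the E14 mean had a median of 1.68 and ran from 1.26 to 5.73.

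The lowest value at E18 came from replicate 1 for 31 of the 37 transcripts. This was so for 28.9% of all transcripts and 78.0% of those under 7 on all 3 arrays at E14. The highest came from replicate 3 for 31 of the 37, beside 33.9% of all and 78.5% of those under 7 at E14. Both patterns were thus common among dim transcripts. On replicate 1, 27 of the 37 were within 0.5 log2 units of the limit of 8, and 7 were over 9. On replicate 3 none was within 0.5 of the limit. E18 replicate 1 was the array nearest to the limit for most of the 37. Of the 2680 transcripts that read under 7 on all 3 arrays at E14, 57 (2.13%) were over 8 on E18 replicate 1, 884 (33.0%) on replicate 2 and 1425 (53.2%) on replicate 3. A further 684 transcripts met every other part of the rule and missed it by E18 replicate 1 alone, whereas 3 missed it by replicate 2 alone and 0 by replicate 3 alone. With E18 replicate 1 left out, 845 transcripts met the rule on the remaining arrays. With E14 replicate 3 left out the number was 62, and with both E18 replicates 2 and 3 left out it was 19, of which 11 were among the 37.

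Values close to the limits were common. The 3 transcripts just inside the upper limit had lowest E18 values of 8.03, 8.04 and 8.04, and the 3 just outside had 7.99, 7.97 and 7.92. At the lower limit, the highest E14 values were 6.997, 6.96 and 6.96 just inside and 7.04, 7.04 and 7.05 just outside. The smallest mean increase inside was 2.04, and the largest outside, among the 3 transcripts that failed by this part alone, was 1.98. The same limits turned around, with all E14 values over 8, all E18 values under 7 and a mean fall of at least 2, were met by 4 transcripts. Under 7 were 9.68% of all transcripts on E18 replicate 2 and 7.58% on replicate 3, beside 15.1% to 15.7% at E14. The 4 are therefore not compared with the 37.

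The random-sequence control, a single row of the table for probes of random sequence, gives a reading of the background signal. It read between 5.05 and 5.08 on the 3 arrays at E14. The median of the 37 lay 1.38, 1.43 and 1.51 log2 units above the control on these arrays. Between 4 and 9 of the 37 were less than 1 log2 unit above it or below it on an array, and at most 1 read below it. Most of the 37 were therefore dim at E14 but read higher than the control, and "under 7" is not the same as the level of the control.

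At E18 the control did not rise with the transcripts. It read 5.17 on replicate 1, 4.40 on replicate 2 and 4.44 on replicate 3. It was thus lower on replicates 2 and 3, where the 37 were higher, than on replicate 1. The median distance from the control at E18 was 3.09 on replicate 1, 6.41 on replicate 2 and 7.48 on replicate 3. On E15 replicate 3 the control was 4.71 and on E16 replicate 1 it was 4.61, again under its level on the 8 arrays of wider spread, which was 5.01 to 5.17. With a single control row, the spread between control sequences is not known.

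The arrays of E15 and E16 were not used by the rule. At E15, 2 of the 3 arrays looked like E14. The median of the 37 was 6.89 on E15 replicate 1 and 6.61 on replicate 2, and none of the 37 was over 8 on either. On E15 replicate 3 the median was 10.18 and 29 of the 37 were over 8. The highest value on the first pair of arrays was 7.90, so these 29 were over 8 on replicate 3 alone. This was so for 5.89% of all transcripts and for 19.4% of those under 7 at E14.

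At E16 the arrays again disagreed. The median was 9.12 on E16 replicate 1, 7.01 on replicate 2 and 7.27 on replicate 3. Over 8 were 30 transcripts on replicate 1, 5 on replicate 2 and 7 on replicate 3. Of the 30, 23 were over 8 on replicate 1 only, as were 1.95% of all transcripts and 5.82% of those under 7 at E14. In 31 of the 37, replicate 1 was the highest array of E16, beside 32.0% of all and 58.2% of those under 7 at E14. In 34 of the 37, replicate 3 was the highest array of E15, beside 28.9% of all and 73.5% of those under 7 at E14.

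**Figure D2:**
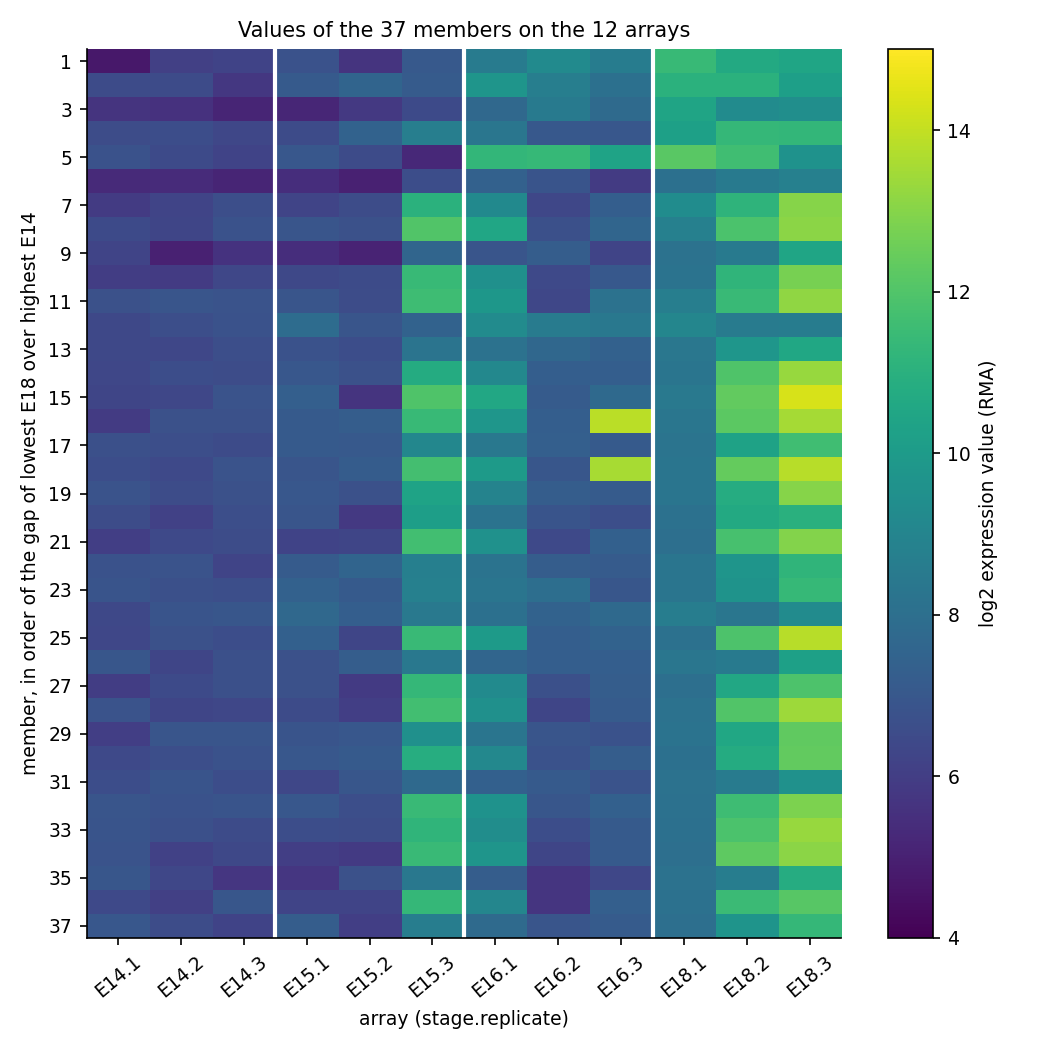
Log2 expression value (colour) of the 37 transcripts (rows, numbered by the gap between the lowest E18 and the highest E14 value) on the 12 arrays (columns, stage and replicate). Most rows are bright on E15.3, E16.1, E18.2 and E18.3 and close to the limit of 8 on E18.1, and rows 1, 2, 5 and 12 are over 8 on all 3 arrays at E16 and under 8 on all 3 at E15.

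The limits of the rule were applied to each stage. At E15, 3 of the 37 were under 7 on all arrays, 0 were over 8 on all, and 34 had arrays on both sides or between the limits. Under 7 on all arrays at E15 were 7.18% of all transcripts and 52.8% of those under 7 at E14. Over 8 on all were 71.1% and 0%. At E16, 0 of the 37 were under 7 on all arrays, 4 were over 8 on all and 33 were mixed. Under 7 on all arrays at E16 were 9.85% of all transcripts and 68.5% of those under 7 at E14. Over 8 on all were 72.7% and 0.224%. Among all 2680 transcripts that were under 7 at E14, 6 were over 8 on all arrays at E16, and 4 of these were among the 37. Nothing is read from this share, since the rule chose the 37 for high values at E18. Without E15 replicate 3, 22 of the 37 were under 7 on both remaining arrays at E15. Without E16 replicate 1, 4 were under 7 at E16, and without E16 replicate 2, 1 was under 7 and 7 were over 8.

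The 4 arrays on which most of the 37 were high were the 4 with the lowest SD. Taken in order of falling SD, these arrays gave medians of the 37 of 9.12, 10.18, 10.82 and 11.92. On the 8 arrays of wider spread it was between 6.46 and 8.26, with the highest on E18 replicate 1. The rise on these 4 arrays was not particular to the 37. The median of all 2680 transcripts under 7 at E14 was between 5.84 and 6.12 on the 8 arrays of wider spread, and in the same order it was 6.38, 6.82, 7.32 and 8.19 on the others. The part of array spread in the levels of the 37 was not tested.

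**Figure D3:**
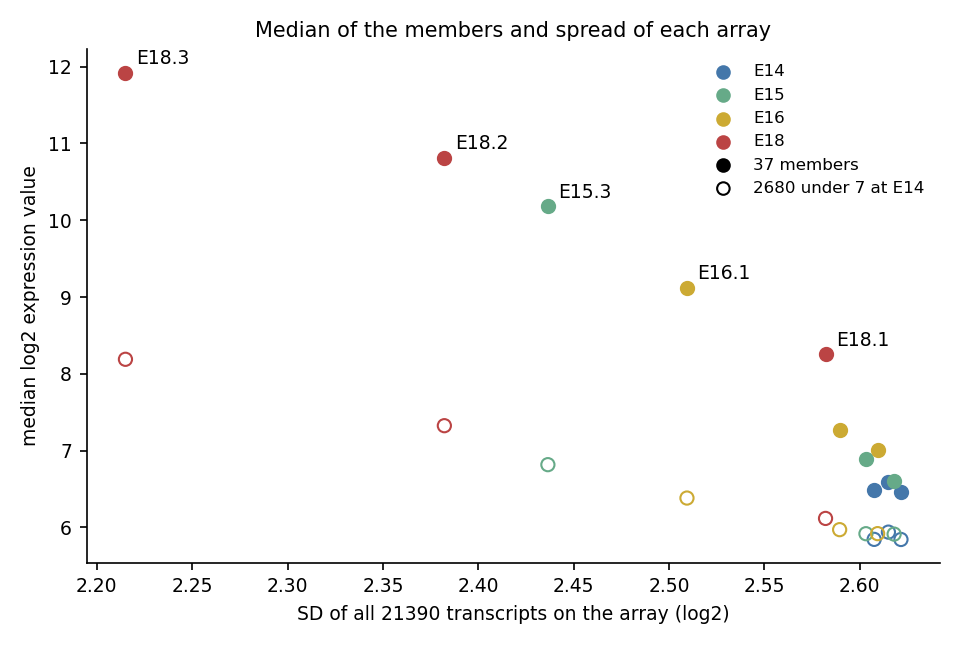
Median log2 expression value (vertical axis) of the 37 transcripts (filled) and of the 2680 transcripts under 7 at E14 (open) against the SD of all 21390 transcripts on the array (horizontal axis), 1 point of each kind per array, coloured by stage. Both medians are highest on E18.3, where the SD is 2.22, and E18.1, with an SD of 2.58, lies between the narrow arrays and the other wide ones.

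The median step within a stage was larger for the 37 than for the dim transcripts as a whole. E15 replicate 3 minus the mean of replicates 1 and 2 had a median of 3.52 log2 units over the 37, from -1.47 to 5.49, beside 0.88 over the 2680 dim transcripts and -0.11 over all transcripts. E16 replicate 1 minus the mean of replicates 2 and 3 had a median of 1.34 over the 37, beside 0.36 over the dim transcripts and -0.02 over all. These are differences between single arrays and have no replicate of their own. They are also not independent of the rule, which asked for high values on E18 replicates 2 and 3. Deviations from the stage means on E15 replicate 3 correlated at 0.68 with E18 replicate 3 and 0.16 with E18 replicate 2. Those on E16 replicate 1 correlated at 0.45 and 0.18 with the same arrays. Nothing is therefore read from the larger step of the 37. The counts given earlier for E15 replicate 3 and E16 replicate 1 carry the same limit.

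The position on the array changed with the level. Ranked among all transcripts of the same array, the median transcript of the 37 was at the percentile 10.8 to 11.7 at E14. It was at 26.4 on E18 replicate 1, 52.8 on replicate 2 and 72.4 on replicate 3. On E15 replicate 3 it was at 45.0 and on E16 replicate 1 at 33.6, while it was between 11.8 and 17.3 on the other arrays of these stages. The ranks at E14 and on E18 replicate 1 were largely set by the limits of the rule. On E18 replicates 2 and 3, 19.8% and 16.4% of all transcripts read under 8, so the rule set only a lower bound on the ranks there. These ranks are still not independent of the rule. After quantile normalization, which gives every array the same distribution, 20 transcripts met the rule, 19 of them among the 37.

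The 37 were divided into 2 sets by whether a transcript was over 8 on E15 replicate 3. This division was made after the values were seen and is used as a description. The sets were not sharply apart. On that array the highest of the smaller set of 8 read 7.77 and the lowest of the larger set read 8.23. E18 replicate 3 was higher than replicate 1 in all of the larger set and in 3 of the 8. The larger set of 29 had medians of 6.89 and 6.62 on E15 replicates 1 and 2, then 11.02 on replicate 3. At E16 its medians were 9.14, 6.92 and 7.26 on replicates 1, 2 and 3, and at E18 they were 8.21, 11.19 and 12.77. The median of this set was higher on each of the 4 arrays of lower SD than on any of the other 8. This was partly set by the division and the rule. They asked for more than 8 on E15 replicate 3 and on the E18 arrays, and for less than 7 at E14. Deviations on E16 replicate 1 correlated at 0.70 with those on E15 replicate 3. Nothing is therefore read from this order. In 26 of the 29, E15 replicate 3 was higher than E18 replicate 1, beside 47.3% of all transcripts and 75.3% of those under 7 at E14. This count was largely set by the division. In 20 of the 29, E16 replicate 1 was higher than E18 replicate 1, beside 50.8% of all and 63.8% of those under 7 at E14. Neither pattern was particular to the 29.

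On the arrays of wider spread alone, the levels of this set of 29 moved little until E18. The mean of E15 replicates 1 and 2 was higher than the E14 mean by a median of 0.24 log2 units. The mean of E16 replicates 2 and 3 was higher than the E14 mean by a median of 0.55, and E18 replicate 1 by 1.67. The last value is partly set by the rule, which asks for more than 8 on that array. Each of these differences also uses the E14 mean, which the rule held low. In 27 of the 29, E18 replicate 1 was above each of the other 7 arrays of wider spread, beside 23.4% of all transcripts and 32.1% of those under 7 at E14, a count that the limits of the rule largely set.

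The other 2 of the 29 were high on E16 replicate 3. They read 13.88 and 13.58 there, against 7.27 and 6.94 on E16 replicate 2, 9.79 and 9.98 on E16 replicate 1, and 8.32 and 8.29 on E18 replicate 1. The next highest of the 29 on E16 replicate 3 read 8.16. Among the arrays of wider spread, levels this high stood on E16 replicate 3 alone. On arrays of lower SD the 2 transcripts read 13.53 and 13.82 on E18 replicate 3 and 12.25 and 12.38 on E18 replicate 2. They read 11.43 and 11.73 on E15 replicate 3.

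The smaller set of 8 was above its E14 level at E16 on the arrays of wider spread too. Its medians were 6.32, 6.27 and 5.98 on replicates 1, 2 and 3 at E14, and 6.55, 6.18 and 7.10 at E15. At E16 they were 8.15, 8.53 and 7.94, and at E18 they were 9.73, 8.96 and 9.58. The median SD of this set was 0.49 at E16 and 0.55 at E18, where that of the set of 29 was 1.36 and 2.19. The SD at E15 was largely fixed by the division and is not compared. The SDs at E16 and E18 were not independent of the division either. Deviations from the stage means on E15 replicate 3 correlated at 0.70 with those on E16 replicate 1. The correlation was 0.68 with E18 replicate 3 and -0.72 with E18 replicate 1. Nothing is therefore read from the smaller SD of the 8. E18 replicate 1 was the highest array of its stage in 4 of the 8 and in 0 of the 29. This was so for 51.2% of all transcripts and for 13.4% of those under 7 at E14. These counts too are not independent of the division. On the arrays of wider spread, the mean of E16 replicates 2 and 3 was above the E14 mean by a median of 1.996 log2 units, and E18 replicate 1 by 3.78, the last again partly set by the rule. The first of these differences was above 0 in 8 of the 8 and also in 28 of the 29, so its sign was not particular to the 8. It was above 0 in 9686 of all 21390 transcripts and in 1577 of the 2680 under 7 at E14. The limit of the rule at E14 enters this difference, and so does the division. Deviations on E15 replicate 3 correlated at -0.45 with those on E16 replicate 2 and at -0.22 with those on E16 replicate 3. The size of this difference is therefore not compared between the 8 and the 29. In the 8, the mean of E15 replicates 1 and 2 minus the E14 mean was above 0 in 5 and below 0 in 3. No order between E14 and E15 was thus seen.

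**Figure D4:**
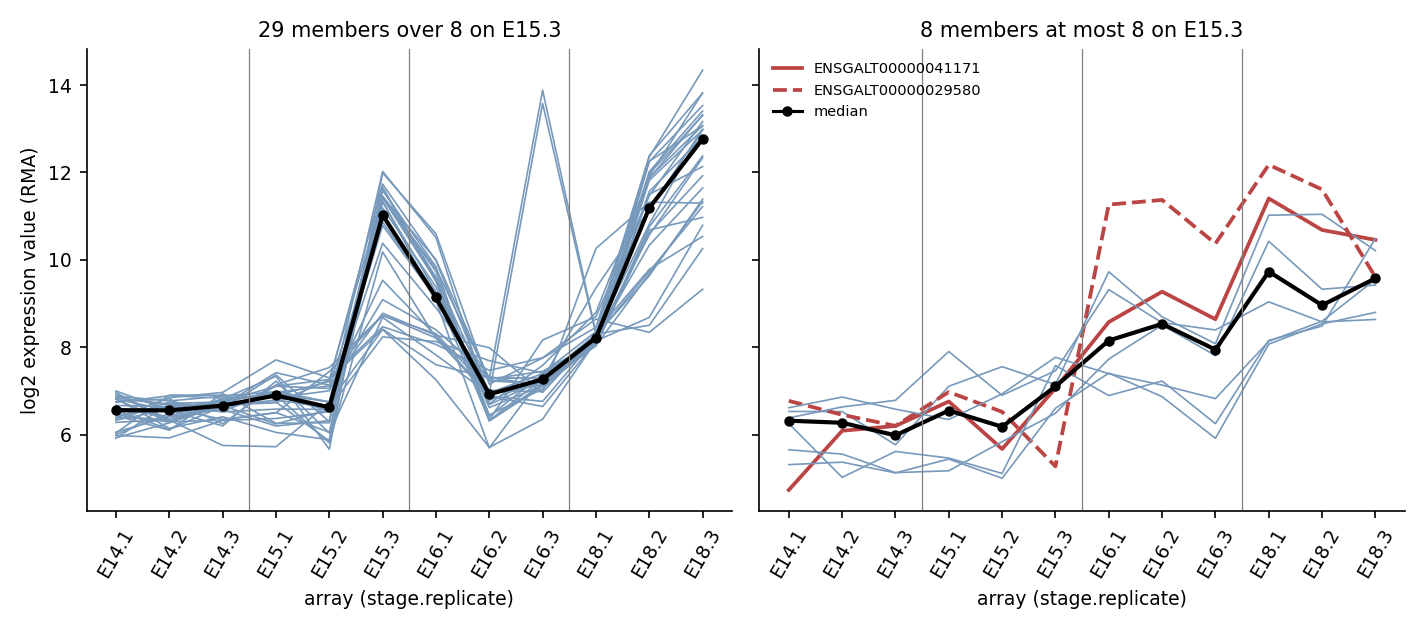
Log2 expression value (vertical axis) on the 12 arrays (horizontal axis, stage and replicate) for the 29 transcripts over 8 on E15.3 (left) and the 8 at most 8 there (right), 1 line per transcript, the median in black and the 2 named transcripts in red. Lines only join values of 1 transcript, and replicates have no order. The median on the left is 11.02 on E15.3 and 8.21 on E18.1, and on the right it goes from 5.98 to 6.32 at E14 to between 8.96 and 9.73 at E18.

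E15 and E16 were compared in the 37 on arrays that the rule did not use, but the comparison was not independent of the rule. Deviations on E15 replicate 3 and E16 replicate 1 correlated at 0.68 and 0.45 with those on E18 replicate 3. The limma fit also took its spread from all 4 stages, and the p-values of the 37 carry these limits. The contrast of E16 and E15 was taken from the limma fit to all 12 arrays, with Benjamini-Hochberg adjustment over 21390 transcripts. At an adjusted p of at most 0.05, 0 of the 37 were higher and 0 were lower at E16, beside 0.00468% of all transcripts, which is 1 transcript, called higher and 0% called lower. Without adjustment, 6 of the 37 had a p of at most 0.05 and were higher at E16, beside 2.68% of all transcripts, and 0 were lower, beside 1.34% of all. The differences of these 6 were between 1.05 and 4.75 log2 units. Of these 6, 4 were those over 8 on all arrays at E16. The replicates of the 37 were far apart in both stages, with a median SD of 2.03 at E15 and 0.84 at E16. All transcripts had 0.22 and 0.17, and those under 7 at E14 had 0.60 and 0.41. These SDs are not independent of the rule either.

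Over the 37 the median difference between E16 and E15 was -0.13 log2 units. The median was -0.02 over all transcripts and -0.13 over the 2680 under 7 at E14. The difference was above 0 in 12 and below 0 in 25 of the 37. Among the 2680 it was above 0 in 883 and below 0 in 1797, so this direction was not particular to the 37. The sets of 29 and 8 are not compared on this difference, since the division used E15 replicate 3, which enters the E15 mean. On 5 of the 37 the 3 arrays of E16 did not overlap with and were above those of E15, beside 7.82% of all transcripts. On 0 they were all below, beside 7.26% of all.

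The direction of the median turned with single arrays. Without E15 replicate 3 it was 1.20 and all 37 differences were above 0. Without E16 replicate 2 it was 0.26, without E16 replicate 3 it was 0.03, and without any 1 of the other arrays of E15 or E16 it was between -0.84 and -0.63. With the 4 arrays of lowest SD left out, a setting chosen after the values were seen, it was 0.41, with 33 of the 37 above 0, where all transcripts had a median of -0.03. In that fit 10 of the 37 had an unadjusted p of at most 0.05 and were higher at E16, beside 4.61% of all transcripts, 0 were lower, beside 6.44% of all, and after adjustment 0 were called. The 10 included the 6 above, and 7 of the 10 belonged to the set of 8. In that setting both arrays at E16 were above both at E15 on 15 of the 37, beside 16.7% of all transcripts, and below on 0, beside 24.6%. The set of 8 gave 7 of these 15. Neither count of 7 was independent of the division, although E15 replicate 3 was left out. Deviations from the stage means on E15 replicate 3 correlated at -0.45 with those on E16 replicate 2. The correlation was -0.22 with E16 replicate 3. No difference between the sets is therefore read from these counts.

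**Figure D5:**
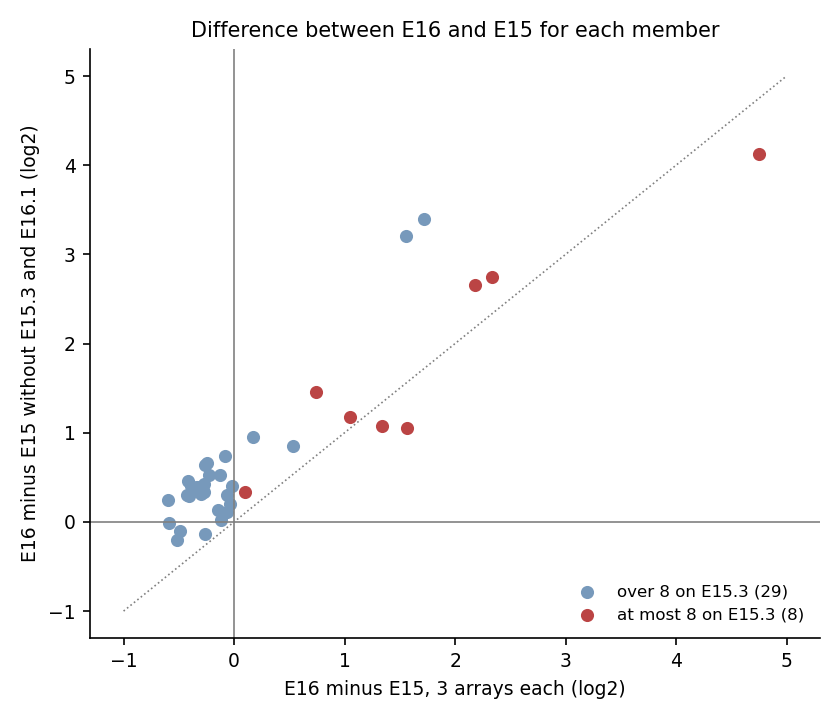
Difference between E16 and E15 in log2 units for each of the 37 transcripts, with 3 arrays at each stage (horizontal axis) and with E15.3 and E16.1 left out (vertical axis), coloured by the level on E15.3, with equality as a dotted line. Of the 37 points 12 lie to the right of 0 and 33 lie above 0. The colour and the horizontal axis both use E15.3.

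The transcript with the largest gap between the lowest E18 and the highest E14 value, 4.26 log2 units, was ENSGALT00000041171. It read 4.73, 6.09 and 6.20 on replicates 1, 2 and 3 at E14, and 6.76, 5.67 and 7.06 at E15. At E16 it read 8.57, 9.27 and 8.64, and at E18 11.40, 10.68 and 10.46. The arrays of E16 were above all arrays of E14 and E15 and below all of E18, so E15, E16 and E18 did not overlap. The places of E14 and E18 in this order were partly set by the rule and by the choice of the largest gap. The level was 5.67 ± 0.82 (SD, n = 3) at E14, 6.50 ± 0.73 (SD, n = 3) at E15, 8.83 ± 0.38 (SD, n = 3) at E16 and 10.85 ± 0.50 (SD, n = 3) at E18.

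At E14 replicate 1 this transcript read 4.73, below the control at 5.08 on that array. Its difference between E16 and E15 was 2.33 log2 units (standard error 0.48), a 5.04-fold change, with an adjusted p of 0.287 by limma. An exact permutation test of 3 arrays against 3, two-sided, gave p = 0.1 and cannot give less. Over 14 alternative settings the difference stayed between 1.92 and 2.74 and the adjusted p by limma between 0.149 and 1.

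The transcript with the largest difference between E16 and E15 among the 37 was ENSGALT00000029580, the fifth by gap. It read 6.77, 6.45 and 6.20 on replicates 1, 2 and 3 at E14, and 6.97, 6.52 and 5.27 at E15. At E16 it read 11.26, 11.37 and 10.37, and at E18 12.18, 11.61 and 9.60. The step lay between E15 and E16, where the lowest E16 and the highest E15 array were 3.40 log2 units apart. E18 overlapped with E16, since E18 replicate 3 was lower than every array at E16.

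The level of ENSGALT00000029580 was 6.25 ± 0.88 (SD, n = 3) at E15 and 11.00 ± 0.55 (SD, n = 3) at E16. The difference was 4.75 log2 units (standard error 0.65), a 26.8-fold change, with an unadjusted p of 2.8e-05 and an adjusted p of 0.112 by limma. The exact permutation test, two-sided, gave p = 0.1, its minimum here. Its difference was the largest E16 minus E15 difference of all 21390 transcripts. The adjusted p by limma was 0.0136 with the replicate number as a block and 0.0088 with array SD as a covariate, and between 0.0574 and 0.536 in the other 12 settings. The difference stayed between 4.12 and 5.11 in these settings. On E15 replicate 3, where most of the 37 were high, it was at its lowest value of all 12 arrays.

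The other 2 of the 4 transcripts over 8 on all arrays at E16 had the second and the twelfth largest gap. The one with the second largest gap read 7.11, 7.55 and 7.14 at E15, 9.72, 8.69 and 8.08 at E16 and 11.02, 11.04 and 10.21 at E18. The twelfth read 7.90, 6.90 and 7.46 at E15, 9.32, 8.56 and 8.39 at E16 and 9.04, 8.58 and 8.63 at E18, so its arrays at E16 and E18 overlapped. In neither did the arrays of E15 and E16 overlap. Their differences between E16 and E15 were 1.57 (standard error 0.41, adjusted p = 0.459 by limma) and 1.34 (standard error 0.30, adjusted p = 0.342 by limma).

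The third largest gap of the 37 belonged to a transcript that was under 7 on all arrays at E15, at 5.17, 5.84 and 6.49. It read 7.73, 8.50 and 7.81 at E16 and 10.42, 9.33 and 9.42 at E18, with no overlap between E15, E16 and E18. The place of E18 in this order was again partly set by the rule and the ranking by gap. This transcript was the 1 of the 37 that met stricter limits of under 6 at E14, over 9 at E18 and a mean increase of at least 3. Its difference between E16 and E15 was 2.18 (standard error 0.39, adjusted p = 0.203 by limma). In contrast, the transcript with the fourth largest gap stood at 8.31, 7.01 and 6.98 at E16 and at 10.26, 11.32 and 11.30 at E18. It was the brightest of the set of 29 on E18 replicate 1, and on E15 it read 6.50, 7.44 and 8.72. Its arrays at E15 and E16 overlapped.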

How the data were processed

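RNA of whole chick lung was hybridized to 12 custom NimbleGen arrays, 3 at each of 4 stages. The log2 values deposited by the authors, after Robust Multi-array Analysis, give each transcript 1 value on each array, beside 1 random-sequence control. Analysis in DNASTAR ArrayStar is stated. Its version, the Ensembl release and the number of probes per transcript are not given in the sources used here. The number of arrays limits the precision. No normalization was added. The 37 transcripts, the limits and the comparisons were chosen with earlier results of these data known. With limma 3.58.1 (R 4.3.3) all 12 arrays, without the control, entered a model of 4 stage means with 8 residual degrees of freedom and a threshold of 0.05 after Benjamini-Hochberg adjustment over 21390 transcripts. The fit was tested on simulated data. The simulated noise was independent and had the same spread for a transcript on every array. That test therefore cannot speak for shared deviations or for the arrays of lower SD. Named by rule, among the 37, were the transcript with the largest gap and that with the largest difference between E16 and E15. Gene lists and cell type markers, meant to be matched by symbol, could not be matched and were not analysed here. Levels, counts and exact tests came from pandas 2.3.3, scipy 1.17.1 and numpy 2.4.6 under Python 3.11.15, and plots from matplotlib 3.10.9. Alternatives were other normalizations, filters, variance models, limits, a replicate block and each array left out.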

Additional observations from a re-analysis of the deposited data

How the results depend on the processing

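The number of transcripts that met the rule, 37, was 20 after quantile normalization, 1 under the stricter limits and 19 without E18 replicates 2 and 3. It was 36 after cyclic loess, 40 after median centring and 31 with limits set relative to the control, with 30, 37 and 18 of the 37 among them. With 1 array left out it ran from 35 to 845, the last without E18 replicate 1. The number of the 37 called higher at E16 than at E15 was 0. It was 1 with the replicate block and 1 with array SD as a covariate, both ENSGALT00000029580, and 6 without adjustment. Of all 21390 transcripts, 6 were called higher with the block, 14 with the covariate and 573 (2.68%) without adjustment, beside 1 in the main fit. The count in the 37 stayed at 0 in the other settings. Only 2 of the 37 were left to test once the dimmest transcripts were filtered out. The number of the 37 called lower was 0 in every setting. No pairing of the arrays by replicate number was seen. Deviations from the stage means of same-numbered arrays correlated between -0.62 and 0.68, over 0.1 in 3 of 18 pairs. Of the 12 arrays, 2 were closest to an array of their own number. The highest of these correlations joined E15 replicate 3 and E18 replicate 3, both of lower SD, so this check cannot exclude a pairing. The number under 7 on all arrays at E15 was between 3 and 22 with 1 array left out, and 22 without the 4 arrays of lowest SD. The number under 7 at E16 was between 0 and 4, and 4 without those 4 arrays. The number over 8 at E16 was between 4 and 7 with 1 array left out. The cause of these changes was not tested. Array SD as a covariate and leaving out the arrays of lowest SD were chosen after the values were seen.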
